A study of Mus musculus with 6 samples.

Results

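The immediate early genes *Fos*, *Fosb*, *Jun*, *Junb*, *Jund*, *Egr1*, *Egr2*, *Ier2*, *Dusp1* and *Nr4a1* were taken by symbol from the table of counts per gene in sorted regulatory T (Treg) cells. All 10 were found among its 24420 genes, and all 10 passed the filter on low counts that left 10949 genes for testing. The Treg cells, described as from lymph nodes, came from female C57BL/6 mice of 2 genotypes. The paper's methods for the sequencing name no tissue, and its general Treg purification used lymph nodes and spleen. OGT-sufficient cells (n = 3) had the genotype Ogt wt/fl and OGT-deficient cells (n = 3) had the genotype Ogt fl/fl, and the mice of both groups were Foxp3 YFP-Cre/wt. Both groups therefore carry the YFP-Cre fusion at one *Foxp3* allele and at least one floxed *Ogt* allele, and the labels name no treatment. Cre was driven from the *Foxp3* locus, which is X-linked, so in these females YFP marks the part of the Treg cells in which the Cre-bearing X chromosome is active. *Ogt* lies on the X chromosome as well, so in each cell the *Ogt* allele on the active X chromosome is the one that counts. The paper treats the YFP+ cells of Ogt wt/fl females as OGT-sufficient. The sources used here do not say which of their X chromosomes carries the floxed allele. CD4 beads and then a sort for YFP gave the cells, and the sources used here give only a general age range for the mice. The labels number the replicates without stating whether a library came from 1 mouse or from pooled mice, so p-values measure the spread between these samples.

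Immediate early genes are transcribed within minutes of a stimulus, without need for new protein, mainly through serum response factor (SRF) with its ternary complex factors and through CREB. Antigen receptor signals, growth factors and cell stress all induce them through MAP kinases and calcium. FOS and JUN proteins pair to form AP-1, EGR1 and EGR2 are zinc finger activators, and NR4A1 is an orphan nuclear receptor. In T cells *Nr4a1* and *Egr2* are widely used as readouts of T-cell receptor signaling, and NR4A receptors are known to be needed for Treg cell maintenance. OGT, O-GlcNAc transferase, attaches a single sugar, O-GlcNAc, to serine and threonine residues of nuclear and cytoplasmic proteins. The comparison asks how the levels of these genes differ between Treg cells with and without OGT.

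The promoter sequences of *Fos*, *Jun*, *Junb*, *Egr2* and *Nr4a1* show the kinds of response elements near the starts of the genes on which the comparison turns. Each run below is the 150 bases before a RefSeq transcript start in GRCm38.p6, printed 5′ to 3′ on the strand of the gene. Capitals mark matches, on either strand, to TGACNTCA (an AP-1 and CREB type site), TGACG (the CREB core), GCGNGGGCG (an EGR site), GGGCGG (a GC box) and the CArG box bound by SRF.
*Fos*: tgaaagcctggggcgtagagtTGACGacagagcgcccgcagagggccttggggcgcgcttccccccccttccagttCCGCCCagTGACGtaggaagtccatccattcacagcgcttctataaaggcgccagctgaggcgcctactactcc
*Jun*: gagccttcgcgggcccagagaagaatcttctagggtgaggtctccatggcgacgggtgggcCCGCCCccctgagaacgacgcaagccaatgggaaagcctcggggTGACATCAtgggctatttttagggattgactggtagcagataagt
*Junb*: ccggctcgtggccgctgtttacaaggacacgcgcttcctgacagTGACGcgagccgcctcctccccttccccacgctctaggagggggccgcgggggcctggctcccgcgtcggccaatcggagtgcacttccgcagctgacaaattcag
*Egr2*: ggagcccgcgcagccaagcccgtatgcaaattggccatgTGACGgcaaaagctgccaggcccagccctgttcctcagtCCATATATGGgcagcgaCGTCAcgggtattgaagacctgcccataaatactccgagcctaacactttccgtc
*Nr4a1*: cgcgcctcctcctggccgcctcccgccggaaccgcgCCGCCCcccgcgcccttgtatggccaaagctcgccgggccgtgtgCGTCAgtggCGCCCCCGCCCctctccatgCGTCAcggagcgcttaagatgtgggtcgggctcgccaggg
These windows lie at chr12:85473740-85473889 (+ strand) for *Fos*, chr4:95052223-95052372 (− strand) for *Jun*, chr8:84978749-84978898 (− strand) for *Junb*, chr10:67537719-67537868 (+ strand) for *Egr2* and chr15:101266696-101266845 (+ strand) for *Nr4a1*. None of these 5 windows overlaps an annotated exon. The *Egr2* window is 1 of 5 listed for that gene, of which 4 hold a CArG box, and in the window shown it begins 72 bases before the start. The *Nr4a1* window holds an EGR site beginning 60 bases before the start, on the opposite strand and overlapping a GC box, between a pair of CREB cores. *Jun* has TGACATCA beginning 45 bases before its start, *Fos* has CREB cores at 129 and 66 bases, and *Junb* has 1 at 106 bases. Windows were at hand for 8 members. Of these members, 6 held TGACG, 6 held GGGCGG, 2 held TGACNTCA, 2 held GCGNGGGCG and 1 held a CArG box. A member was counted if any of its windows matched, and *Egr2* had 5, so these counts are unlike the shares per window that follow. The *Jund* window, chr8:70697589-70697738, does not adjoin the gene model used here, which starts at 70698949. Among all 32817 windows of this length the shares were 13.3% for TGACG, 28.6% for GGGCGG, 5.71% for TGACNTCA, 3.81% for GCGNGGGCG and 0.917% for the CArG box. TGACG also lies within TGACGTCA, so these matches can overlap. A match is a description of letters and does not show that a factor binds there. Bases farther upstream than 150 were not searched, so a member without a match here may have one farther away. No window was analysed for *Egr1* and *Ier2*.

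Total counts per sample lay between 3375454 and 4103552, of which the ribosomal RNA gene *Rn45s* took 24.2% to 37.1%, and the 10 members together took between 0.0934% and 0.119%. Levels are given as CPM, the count scaled by library size after edgeR's TMM scaling between samples, and a floor of 3 counts equals 0.756 to 0.805 CPM. *Ogt* itself averaged 190 ± 53.7 CPM in OGT-sufficient against 82.4 ± 14.6 CPM in OGT-deficient samples (SD, n = 3), with no overlap, and its log2 fold change of -1.21 had an adjusted p of 0.191 by edgeR's test and 0.000561 by DESeq2. All 7 Treg markers, *Foxp3* and *Il2ra* among them, were detected, with a summed level of 1989 to 2954 CPM in OGT-sufficient and 2696 to 2931 CPM in OGT-deficient samples. OGT-sufficient replicate 3 stood apart from the other libraries, with 18346 genes having a count against 14412 to 15197 elsewhere. Counts of each gene are given in the order of replicates 1, 2 and 3, OGT-sufficient samples first. Fold changes are on the log2 scale, OGT-deficient minus OGT-sufficient, with standard errors (SE) and p-values from edgeR's quasi-likelihood test, adjusted by the Benjamini-Hochberg method over all 10949 genes.

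The members did not differ in one common direction. In OGT-deficient Treg cells *Egr1*, *Egr2* and *Junb* were lower in every sample, at 0.734, 0.741 and 0.759 of their OGT-sufficient level, *Nr4a1* was higher in every sample at 1.36-fold, and the other 6 overlapped between the genotypes. None of the 10 passed an adjusted p of 0.1, the threshold used here, which 0.0274% of all genes passed (3 genes). At an unadjusted p of 0.05, 4 of 10 members passed, 3 lower and 1 higher, where 7.1% of all genes passed (4.01% lower and 3.09% higher). The groups did not overlap for these 4 members either, and for 13.2% of all genes (7.48% lower and 5.72% higher). The members had a median log2 fold change of -0.08, beside -0.02 for all genes tested. A lower level in sorted bulk cells can mean less RNA per cell, fewer cells that express the gene or a changed share of other cells. These cannot be told apart here.

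**Figure D1:**
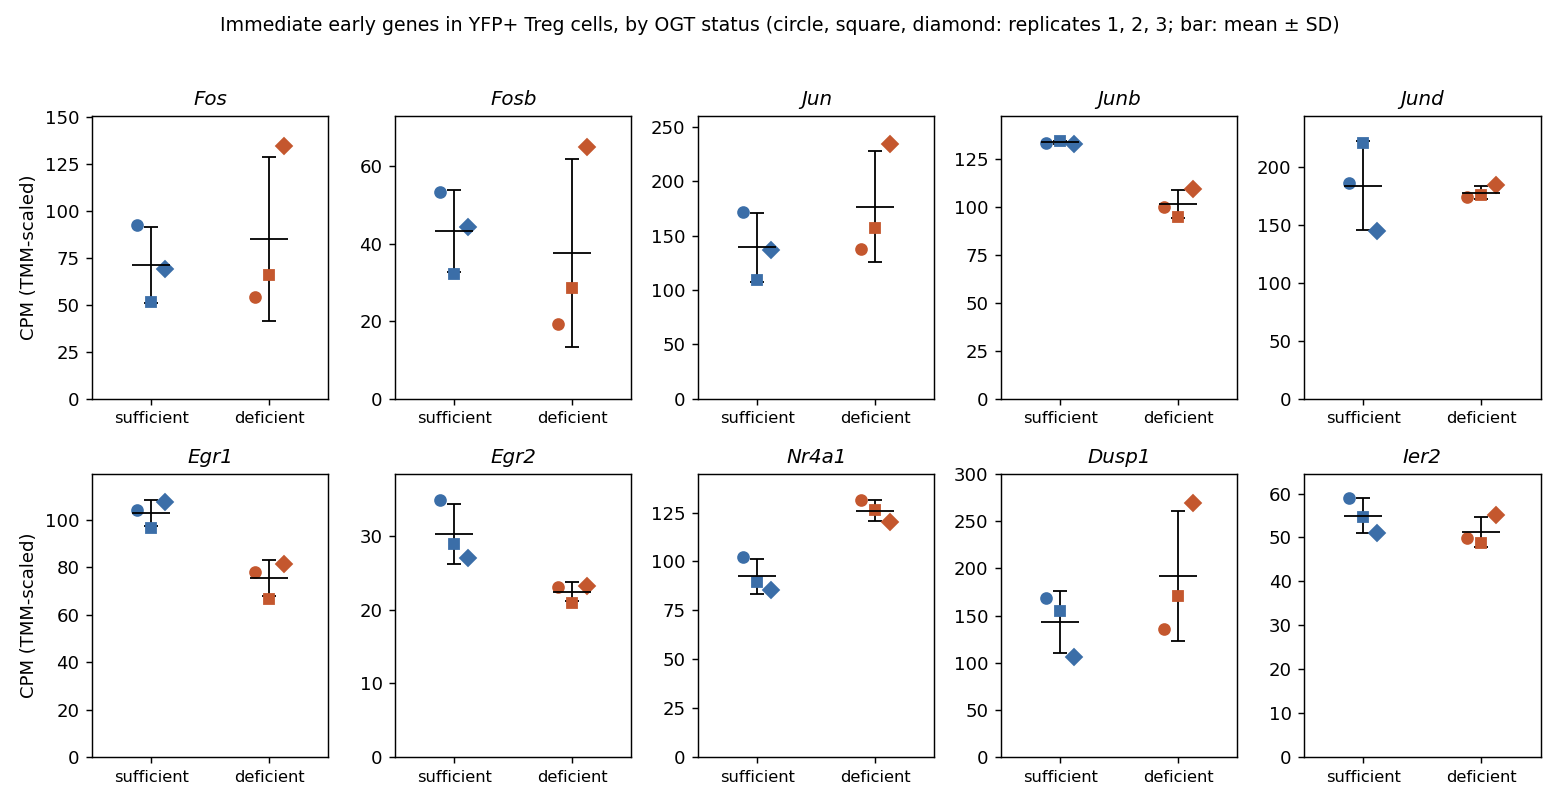
Level of each immediate early gene in CPM (vertical axis, from 0) in the 3 OGT-sufficient (blue) and 3 OGT-deficient (orange) samples, with mean ± SD; circles, squares and diamonds are replicates 1, 2 and 3. Every OGT-deficient sample is below every OGT-sufficient one for *Egr1*, *Egr2* and *Junb* and above for *Nr4a1*, and OGT-deficient replicate 3 is highest for *Fos*, *Fosb*, *Jun* and *Dusp1*.

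*Egr1* encodes a zinc finger activator induced by MAP kinase signals, and its gene model lies at chr18:34859823-34864984 (+ strand, GRCm38). In replicate order, the OGT-sufficient samples held 391, 360 and 410 counts of *Egr1* and the OGT-deficient ones 303, 265 and 312. The lowest OGT-sufficient count was thus above the highest OGT-deficient one. The level was 103 ± 5.58 CPM (SD, n = 3) against 75.3 ± 7.64 CPM (SD, n = 3), 0.734-fold. Its log2 fold change of -0.45 (SE 0.12) came with an unadjusted p of 0.00503 and an adjusted p of 0.440 by edgeR's test.

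*Egr2*, at chr10:67535475-67542188 (+ strand), encodes a related factor that restrains T-cell activation and has a lower level than *Egr1*. Counts were 131, 108 and 103 against 90, 83 and 89, again with no overlap. In CPM this was 30.3 ± 4.09 (SD, n = 3) against 22.4 ± 1.31 (SD, n = 3). This gave a log2 fold change of -0.43 (SE 0.16), with an unadjusted p of 0.0219 and an adjusted p of 0.592 by edgeR's test. Without OGT-sufficient replicate 1, the highest of the 6, the difference shrank to -0.28 with an unadjusted p of 0.138. The ratio of *Egr1* to *Egr2* counts overlapped between the genotypes, with means of 3.43 against 3.36.

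*Nr4a1*, at chr15:101254269-101274795 (+ strand), was the only member higher in every OGT-deficient sample. The 3 OGT-sufficient samples held 385, 333 and 325 counts and the 3 OGT-deficient ones 511, 502 and 461. The lowest OGT-deficient count was above the highest OGT-sufficient one. The level was 92.3 ± 9.01 CPM (SD, n = 3) against 126 ± 5.50 CPM (SD, n = 3), 1.36-fold. On the log2 scale the fold change was 0.45 (SE 0.12), with an unadjusted p of 0.00387 and an adjusted p of 0.401 by edgeR's test. *Nr4a1* and *Egr1*, both of which follow T-cell receptor signals, therefore lay on opposite sides of 0 with intervals that excluded it (0.19 to 0.71 and -0.72 to -0.17, 95%).

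**Figure D2:**
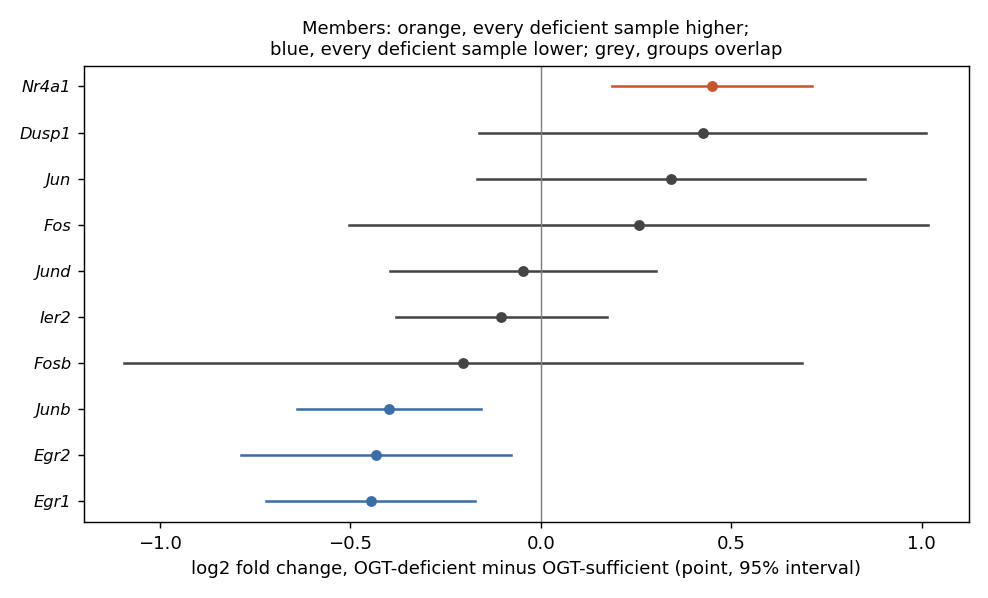
Log2 fold change of each member, OGT-deficient minus OGT-sufficient (horizontal axis; point, with a 95% interval from edgeR's fit), sorted by size; orange and blue mark members whose groups do not overlap. *Nr4a1* at 0.45 is the only member wholly above 0, *Junb*, *Egr2* and *Egr1* between -0.40 and -0.45 lie wholly below it, and the interval of *Fosb* is the widest, from -1.09 to 0.69.

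Among the JUN proteins, JUN is the strong AP-1 activator, JUNB is known as a weaker activator that Treg cells use together with BATF, and JUND is broadly expressed without a stimulus. *Junb*, at chr8:84974484-84978718 (− strand), was counted 502, 502 and 508 times in OGT-sufficient and 390, 377 and 419 times in OGT-deficient cells. The OGT-sufficient samples were nearly equal, and all OGT-deficient samples lay below them. In CPM the level was 134 ± 0.771 (SD, n = 3) against 102 ± 7.27 (SD, n = 3), with a log2 fold change of -0.40 (SE 0.11). The unadjusted p was 0.00480 and the adjusted p was 0.431 by edgeR's test. Of the exon bases of *Junb*, 7.52% overlap *Prdx2* on the other strand, whose own log2 fold change was -0.12 with overlapping groups.

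*Jun*, a single-exon gene at chr4:95049034-95052222 (− strand), had counts of 647, 406 and 523 against 536, 625 and 899. The genotypes overlapped, and OGT-deficient replicate 3 was the highest. Its difference of 0.34 in log2 (SE 0.22) had an adjusted p of 0.776 by edgeR's test. *Jund*, also single-exon, at chr8:70698949-70700616 (+ strand), had 698, 822 and 550 counts against 675, 696 and 705. Its mean differed little, 183 ± 38.2 CPM against 178 ± 5.63 CPM (SD, n = 3), and the log2 fold change was -0.05 (95% interval -0.40 to 0.30). An antisense gene, *Gm11175*, overlaps 52.6% of the *Jund* exon bases and another, *Junos*, overlaps 7.28% of those of *Jun*. The strand setting of the counting is not given in the sources used here, so reads of *Jund* and *Jun* and of their antisense partners cannot be told apart.

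*Fos*, the FOS family's best known AP-1 partner of JUN, lies at chr12:85473890-85477273 (+ strand). Counts were 347, 193 and 264 in OGT-sufficient cells, against 211, 262 and 517 in OGT-deficient cells. The highest and lowest samples were 2.61-fold apart, and each genotype held both high and low samples. The log2 fold change was 0.26 (SE 0.34) with an adjusted p of 0.900 by edgeR's test, and without OGT-deficient replicate 3 it was -0.21. *Fosb*, at chr7:19302696-19310051 (− strand), had 200, 120 and 169 counts against 75, 113 and 249. It spread the most of the 10, 3.37-fold between OGT-deficient replicates 1 and 3. Its log2 fold change of -0.20 (SE 0.39) had an adjusted p of 0.926 by edgeR's test. It was -0.82 without OGT-deficient replicate 3, 0.11 without OGT-deficient replicate 1 and 0.01 without OGT-sufficient replicate 1, so no direction can be given for *Fos* or *Fosb*.

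*Dusp1* encodes a nuclear phosphatase that switches off MAP kinases, the negative feedback arm of the response. At chr17:26505590-26562128 (− strand), the gene gave 633, 577 and 403 counts against 529, 676 and 1033. OGT-deficient replicate 3 was the highest, and OGT-deficient replicate 1 lay within the OGT-sufficient range. The difference was 0.42 in log2 (SE 0.26), with an adjusted p of 0.762 by edgeR's test, and it was 0.13 without OGT-deficient replicate 3. *Ier2*, a single-exon gene at chr8:84661331-84662852 (− strand) whose product is a small nuclear protein, had 222, 204 and 195 counts against 194, 193 and 211. It was the steadiest member, 1.21-fold between its highest and lowest sample, with a log2 fold change of -0.10 (95% interval -0.38 to 0.17).

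The members differed in how far replicates of one genotype spread. Ranked by within-group SD of log2 CPM, *Fosb* (0.674) and *Fos* (0.568) were at the 94.6th and 91.0th percentile of all genes tested. *Dusp1* (0.436) and *Jun* (0.366) followed at the 83.5th and 75.8th percentile. *Junb* at 0.0724, *Ier2* at 0.0988, *Nr4a1* at 0.107 and *Egr1* at 0.119 were at or below percentile 14.1. The 4 that spread most were all highest in OGT-deficient replicate 3, at 135 CPM for *Fos*, 65.0 CPM for *Fosb*, 235 CPM for *Jun* and 269.6 CPM for *Dusp1*. *Junb*, *Egr1*, *Egr2* and *Ier2* were all lowest in OGT-deficient replicate 2. The summed level of the 10 macrophage markers, among them *Csf1r*, *Adgre1* and *C1qa*, varied over the same samples. In replicate order it was 3839, 3407 and 1825 CPM against 1345, 4726 and 5471 CPM, thus also highest in OGT-deficient replicate 3. The 7 Treg markers summed to 2632, 2954 and 1989 CPM against 2931, 2696 and 2707 CPM. How much of a member's level came from macrophages was not tested. None of the 10 macrophage markers was at 0 in all samples, and 0 of 10 had an unadjusted p under 0.05 between genotypes.

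**Figure D3:**
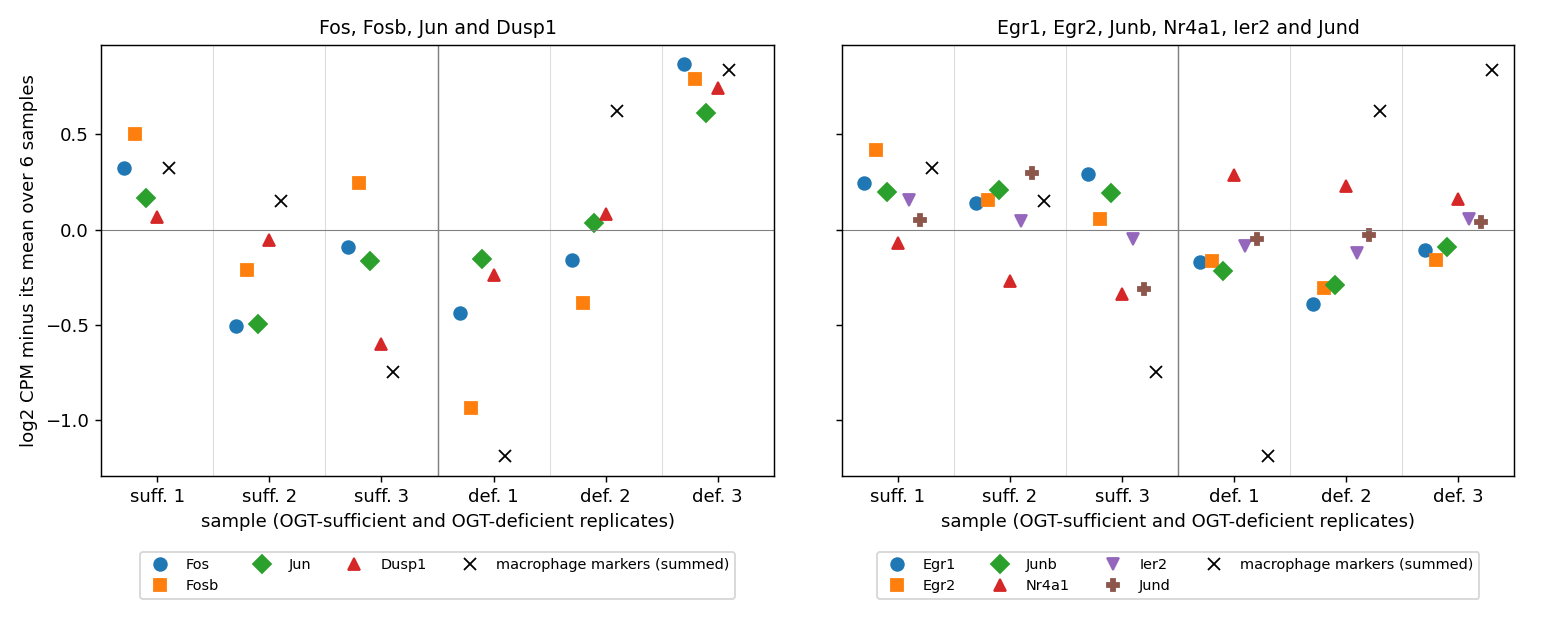
Log2 CPM of each member minus its mean over the 6 samples (vertical axis) by sample (horizontal axis), for the 4 members that spread most (left) and the other 6 (right); crosses give the summed macrophage markers on the same scale. OGT-deficient replicate 3 is the highest sample for all 4 genes on the left and for the macrophage markers, while on the right *Nr4a1* is above its mean in all OGT-deficient samples and *Egr1*, *Egr2* and *Junb* are below.

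A fit with the macrophage marker level as a covariate was also made. It gave log2 fold changes of 0.45 for *Nr4a1*, -0.44 for *Egr1*, -0.44 for *Egr2* and -0.40 for *Junb*, the 4 without overlap. For the variable members they were 0.12 for *Fos*, -0.42 for *Fosb*, 0.27 for *Jun* and 0.33 for *Dusp1*. The marker level itself overlapped between the genotypes. The fit rests on 3 samples per genotype and on a covariate added after seeing the data. It therefore cannot settle the part of macrophage RNA in the differences. Summed levels of neutrophil markers (4 of 5 in the table) were 22.9, 16.1 and 113 CPM in OGT-sufficient samples. In OGT-deficient samples they were 11.6, 13.4 and 15.1 CPM. The groups did not overlap, but the closest samples stood at 16.1 and 15.1 CPM, and the 113 CPM came from OGT-sufficient replicate 3 alone. None of these 4 markers was at 0 throughout. Their part in the differences was not tested. B-cell markers (85.0 to 308 against 86.4 to 143 CPM), erythroid markers (194 to 759 against 197 to 434 CPM), dendritic-cell markers (33.8 to 48.2 against 34.8 to 47.0 CPM), CD8 and NK markers (22.3 to 32.8 against 14.1 to 31.3 CPM) and stromal and endothelial markers (161 to 181 against 146 to 215 CPM) overlapped between the genotypes.

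Ratios of counts within a sample need no scaling between libraries, and they compare samples, not the levels of the 2 genes. The 3 OGT-sufficient samples come first. *Nr4a1* over *Egr1* counts was 0.985, 0.925 and 0.793, against 1.69, 1.89 and 1.48. *Nr4a1* over *Egr2* was 2.94, 3.08 and 3.16 against 5.68, 6.05 and 5.18. Both ratios were thus higher in every OGT-deficient sample than in any OGT-sufficient one. This had to follow from the counts given above, since *Nr4a1* was higher and *Egr1* and *Egr2* lower in every OGT-deficient sample. It is therefore no separate evidence. *Jun* over *Junb* was 1.29, 0.809 and 1.03 against 1.37, 1.66 and 2.15, and *Fos* over *Fosb* had means of 1.64 ± 0.0895 against 2.40 ± 0.376 (SD, n = 3). These 4 ratios did not overlap between genotypes, whereas *Jun* over *Jund* and *Egr1* over *Egr2* did. The exact two-sided permutation p was 0.1 for each of the 4, the smallest that 3 against 3 can give, and 0.15 after adjustment over the 6 ratios, which were chosen after the values were seen.

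**Figure D4:**
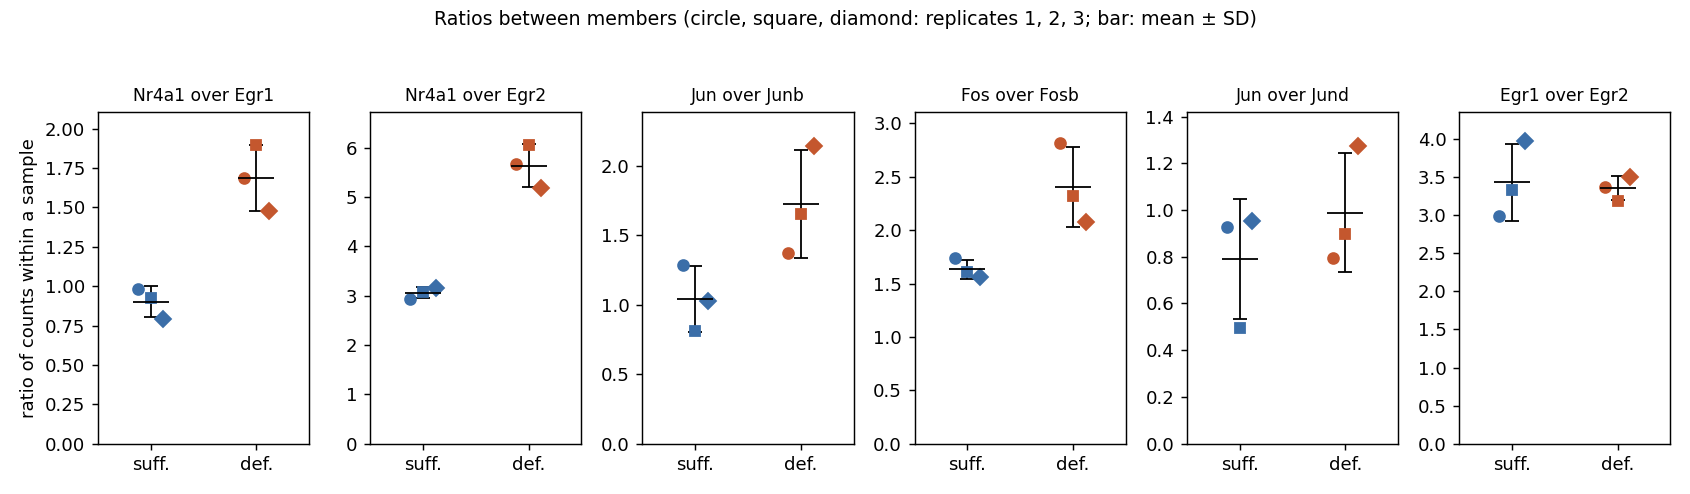
Ratio of the counts of 2 members within each sample (vertical axis, from 0) in OGT-sufficient (blue) and OGT-deficient (orange) cells, with mean ± SD over n = 3. The ratio of *Nr4a1* to *Egr1* averages 0.901 in OGT-sufficient and 1.69 in OGT-deficient cells, and *Jun* over *Jund* and *Egr1* over *Egr2* overlap.

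Per length of the annotated exons, *Jund* was the most abundant member at 108 ± 14.8 CPM per kb (SD, n = 6), the 98.4th percentile of genes tested. Its level and its share below may include reads of antisense *Gm11175*, which overlaps 52.6% of its exon bases. *Junb* (51.1 ± 7.95), *Dusp1* (50.6 ± 16.8) and *Jun* (49.5 ± 13.5 CPM per kb) came next and their ranges overlapped. *Ier2* (34.9 ± 2.57), *Fos* (33.2 ± 13.3) and *Nr4a1* (31.1 ± 5.59 CPM per kb) followed, with ranges that overlapped each other and those of *Jun* and *Dusp1*. *Egr1* at 19.9 ± 3.60 CPM per kb was below *Nr4a1* and above *Egr2* in every sample, and *Egr2* (7.75 ± 1.50) and *Fosb* (6.47 ± 2.72 CPM per kb) overlapped at the low end. Of the length-scaled counts of the 5 AP-1 members, *Jund* made up 44.0% ± 7.38 in OGT-sufficient and 43.6% ± 5.92 in OGT-deficient cells (SD, n = 3). The share of *Junb* was 23.5% ± 2.24 against 18.0% ± 2.10 and that of *Jun* was 17.6% ± 3.49 against 22.0% ± 2.37 (SD, n = 3). Neither overlapped between the genotypes, although for *Jun* the closest samples of the 2 genotypes both stood at 19.9%, and the exact permutation p was 0.1 for each, the smallest possible and not adjusted over the 5 shares. The shares sum to a fixed total, so a lower share of one member raises the others.

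Between members, likeness over the 6 samples was measured as the root mean square (rms) difference of log2 CPM centred on each gene's mean. The closest pair was *Junb* and *Egr1* at 0.0696, followed by *Egr2* with *Junb* at 0.114, while *Fos* was nearest to *Jun* at 0.189. The members farthest from any other were *Fosb* (0.299, to *Fos*), *Nr4a1* (0.290, to *Ier2*) and *Dusp1* (0.266, to *Jun*). For every member, genes outside the list were closer than any other member. Among all genes tested, the nearest member was at rank 6 for *Egr1*, 16 for *Junb*, 48 for *Egr2* and 11 for *Fos*. For *Nr4a1* it was at rank 3880. Outside the members, the 5 genes nearest to the members' mean profile were *Pstpip2* (0.0459), *Csf2ra* (0.0623), *Plk3* (0.0657), *Nrros* (0.0658) and *Ficd* (0.0659). The members themselves lay farther from that mean, from 0.122 for *Ier2* to 0.417 for *Fosb*, so it stands for no single member. The 5 genes share all 6 libraries with the members and were picked from all genes tested, so they are a description only.

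Relatives of the members were named after their values were seen. *Egr3*, the EGR factor closest in function to *Egr2*, had 122, 115 and 115 counts against 86, 103 and 76. All OGT-deficient counts were the lower ones, as for *Egr1* and *Egr2*. Its log2 fold change was -0.46 (SE 0.15), with an adjusted p of 0.565 by edgeR's test. *Nr4a3*, the NR4A receptor that shares targets with *Nr4a1*, had 251, 282 and 259 counts against 346, 336 and 312, again without overlap. The log2 fold change was 0.28 (SE 0.11), with an adjusted p of 0.673. *Nr4a2* had 18 to 33 counts per sample and overlapped (log2 fold change -0.16, SE 0.29). Over all genes, 7.48% were lower and 5.72% higher in every OGT-deficient sample.

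Of 36 other immediate early genes, 31 were tested, and 2 were lower and 7 higher at an unadjusted p under 0.05, where 4.01% of all genes were lower and 3.09% higher. All 9 were without overlap, none passed an adjusted p of 0.1, and the list's median log2 fold change was 0.07 beside -0.02 for all genes. Whether each gene of the list is induced by a stimulus in these cells was not tested. *Klf2*, the factor that keeps resting T cells circulating, had 743, 836 and 648 counts against 1211, 1101 and 991. Its log2 fold change was 0.52 (SE 0.14), with an adjusted p of 0.405 by edgeR's test. *Zfp36l2*, an RNA-binding protein that promotes mRNA decay, had a log2 fold change of 0.45 (adjusted p 0.421), and *Mcl1*, a survival factor with the highest level per length in the list, one of 0.30 (adjusted p 0.577). *Klf10*, a TGF-beta induced repressor, had 133, 125 and 124 counts against 94, 95 and 97, with a log2 fold change of -0.47 (SE 0.13) and an adjusted p of 0.465.

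**Figure D5:**
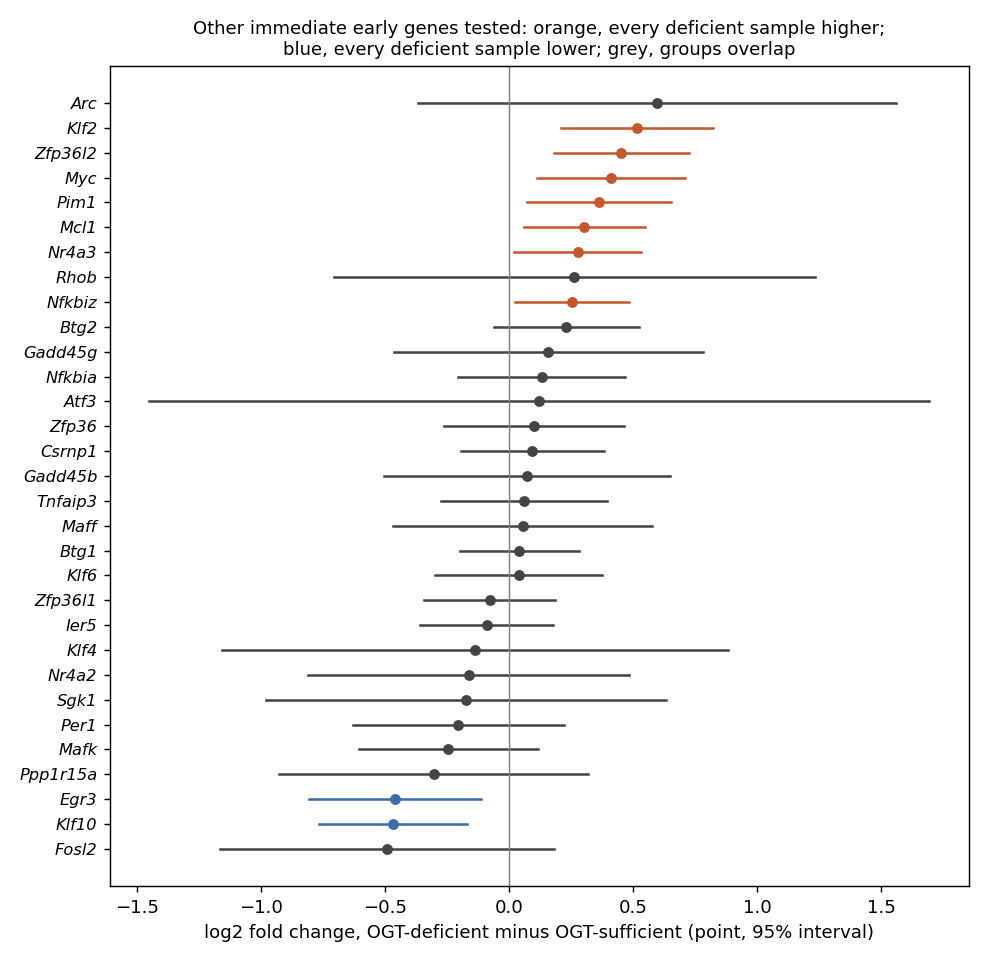
Log2 fold change, OGT-deficient minus OGT-sufficient (horizontal axis; point with 95% interval from edgeR's fit), of the 31 other immediate early genes tested; orange and blue mark genes whose groups do not overlap, higher and lower. *Klf2*, *Zfp36l2*, *Myc*, *Pim1*, *Mcl1*, *Nr4a3* and *Nfkbiz* are higher in every OGT-deficient sample, and *Egr3* and *Klf10* lower.

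The genes around the members were taken in the order of the pathway. Of 27 MAP kinase cascade genes, 1 was lower at an unadjusted p under 0.05 and 0 higher, beside 7.1% of all genes in either direction. The 1 gene was *Rps6ka5*, a nuclear kinase that phosphorylates CREB and histones (log2 fold change -0.53, adjusted p 0.677). *Rps6ka1* (0.26) and *Map3k4* (-0.21) came next by p, and *Rasgrp1*, which couples the T-cell receptor to RAS and had the highest level per length, stood at 0.13. Of 17 upstream factors and coactivators of the SRF and CREB type, 0 passed in either direction (7.1% of all genes), with a median of -0.06. Their lowest p-values were those of *Mef2c* (log2 fold change -0.77, SE 0.40), *Creb1* (-0.19, SE 0.11) and *Creb3* (0.27, SE 0.18), and *Crebbp*, the most abundant per length, was at -0.07. Among 11 AP-1 partners tested of 13, *Batf*, which pairs with JUNB in T cells, was the 1 gene past an unadjusted p of 0.05 (7.1% of all genes), with 141, 126 and 112 counts against 92, 87 and 107. Its log2 fold change was -0.45 (SE 0.16, adjusted p 0.577 by edgeR's test), and as with *Junb* the groups did not overlap. *Fosl2* (-0.49, SE 0.30) and *Mafk* (-0.24, SE 0.16), also members of the wider immediate early list, overlapped, and *Atf4*, the most abundant per length, was at -0.15.

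On the side of negative feedback, 9 of 10 phosphatases other than *Dusp1* were tested, with 2 lower and 3 higher at an unadjusted p under 0.05 (4.01% and 3.09% of all genes) and none at an adjusted p of 0.1. The 2 lower ones were *Dusp4*, whose groups overlapped (log2 fold change -0.61), and *Ptpn22*, which is not a MAP kinase phosphatase. *Dusp2*, a nuclear phosphatase and the most abundant per length, had 280, 336 and 303 counts against 498, 378 and 419 and a log2 fold change of 0.45 (SE 0.14, adjusted p 0.552). *Dusp5*, which acts on ERK, was at 0.39 (SE 0.14) and *Ptpn22*, which dampens T-cell receptor signaling, at -0.32 (SE 0.13). Of 9 EGR and NR4A corepressors and partners, 0 passed in either direction (7.1% of all genes). *Nab1* (-0.23, SE 0.12), *Nfatc1* (-0.18, SE 0.11) and *Rxrb* (-0.27, SE 0.18) had the lowest p-values, and *Ncor1*, the most abundant per length, was at -0.09.

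Of 16 genes induced by the T-cell receptor, a list that includes *Myc*, *Egr3* and *Nr4a3*, 4 were lower and 3 higher at an unadjusted p under 0.05 (4.01% and 3.09% of all genes), and none passed an adjusted p of 0.1. *Irf4*, needed for effector Treg cells, had 361, 393 and 329 counts against 541, 516 and 623 and a log2 fold change of 0.58 (SE 0.13, adjusted p 0.306). *Tox2* (-1.50, SE 0.37, adjusted p 0.375) and *Bhlhe40* (-0.87, SE 0.22, adjusted p 0.385), which also encode transcription factors, were lower in every OGT-deficient sample, and *Tnfrsf4*, the most abundant per length, was at 0.17. These T-cell receptor genes, like the members, therefore lay on both sides of 0. Of 12 heat shock genes tested of 14, 1 was higher (3.09% of all genes), *Dnajb1*, a co-chaperone, with 298, 298 and 292 counts against 485, 468 and 372 and a log2 fold change of 0.53 (SE 0.13, adjusted p 0.348). *Hsf1* (-0.42, SE 0.19), *Hsph1* (-0.48, SE 0.23) and *Hsp90ab1*, the most abundant per length (-0.14, SE 0.15), did not pass.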

How the data were processed

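RNA of YFP+ Treg cells was sequenced as paired-end reads. The authors trimmed the reads with Trimmomatic 0.33 and aligned them with Bowtie2 2.2.4.0. The paper names Cuffquant for quantification and the submitters' processing notes name featureCounts and the mm10 build. Annotation and strand setting are not given in the sources used here. The authors deposited whole numbers per gene and sample, used here as raw counts. The columns with the authors' own means, fold changes and p-values were not used.

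Samples were grouped by genotype. Counts were tested in R 4.3.3 with edgeR 4.0.16 (TMM scaling, filterByExpr with a minimum count of 10, quasi-likelihood test without a replicate block, two-sided, adjusted over 10949 genes), after a test on simulated counts. Alternatives were other scalings and filters, the exact test, DESeq2 1.42.0, GC and length offsets, a replicate block and leaving out each sample. A macrophage marker covariate was added after seeing the data. Totals of 3375454 to 4103552 counts limit the precision, and the floor of 3 counts covers counting error only. Replicates differed by more than sampling noise (chi-square per degree of freedom 3.46 to 24.2).

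The members and lists were chosen with earlier results of these data known. Genes named are the members, *Ogt*, the 3 genes with the lowest p and the most abundant gene of each list, the 5 genes nearest the members' mean profile and, chosen after their values were seen, relatives of the members (*Egr3*, *Nr4a2*, *Nr4a3*) and further genes that make up a count or a plot (*Dusp4*, *Myc*, *Pim1*, *Nfkbiz*). Gene models are from GENCODE M21 (GRCm38), which held 23375 of the 24420 symbols, and promoters are from RefSeq GRCm38.p6, with *Egr1* and *Ier2* not analysed here.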

Additional observations from a re-analysis of the deposited data

How the results depend on the processing

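No member passed an adjusted p of 0.1 in edgeR's test or in any of 16 alternatives, DESeq2 and edgeR's exact test included, and all members were tested in each. The number past an unadjusted p of 0.05 was 4, and between 3 (DESeq2, and without OGT-deficient replicate 2) and 5 (no low-count filter, and without OGT-deficient replicate 1). *Nr4a1*, *Egr1* and *Junb* stayed past it in 16 of 16 alternatives and *Egr2* in 11 of 16, with log2 fold changes of 0.40 to 0.57, -0.50 to -0.33, -0.45 to -0.32 and -0.50 to -0.28. Of the others, *Jun* passed without the filter and without OGT-sufficient replicate 1, *Dusp1* without the filter and without OGT-deficient replicate 1, and *Fosb* without OGT-deficient replicate 3. The log2 fold change changed sign for *Fosb* without OGT-sufficient replicate 1 (0.01) and without OGT-deficient replicate 1 (0.11), for *Jund* without OGT-sufficient replicate 2 (0.11) and for *Fos* without OGT-deficient replicate 3 (-0.21). Without 1 sample, *Fos* ranged from -0.21 to 0.53, *Fosb* from -0.82 to 0.11, *Jund* from -0.18 to 0.11 and the median over the members from -0.17 to 0.04. The cause of these shifts was not tested.

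Samples with the same replicate number did not deviate together (correlations -0.281, 0.0073 and -0.118). The labels do not say whether the numbers pair samples, and with 3 samples per group these correlations cannot decide it. With the replicate number as a block, 4 members passed an unadjusted p of 0.05 and 0 an adjusted p of 0.1, with a median of -0.07, so the block changed no call of a member.

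Over all genes the number at an adjusted p of 0.1 was 3. It was 38 with DESeq2, 80 with the exact test, 131 without the filter, 31 with the macrophage covariate, 1 with GC and length offsets, 0 with the block and 0 to 9 without 1 sample. *Ogt* passed it in 4 of 16 alternatives (DESeq2, exact test, no filter and macrophage covariate), *Klf2* and *Dnajb1* in 1 of 16, *Irf4* and *Bhlhe40* in 2 of 16 and *Tox2* in 2 of 15.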
